A study of Mus musculus with 39 samples.

Results

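H19, Igf2, Dlk1, Meg3, Peg3, Cdkn1c, Plagl1, Igf2bp2 and Igf2bp3 are imprinted genes and genes of the fetal growth programme. They are 9 of the 53465 genes of the deposited table, taken by name, and all 9 have a row. They were chosen by their levels in newborn marrow against spleen and intestine, so those levels are given below as a description, with no test. Polyadenylated RNA of 39 mouse samples had been sequenced, 3 libraries in each of 13 groups, in a study of myeloid-derived suppressor cells. Such cells are immature, belong to the myeloid lineage and dampen T cells, and their subsets are labelled G, usually read as granulocytic, and M, usually read as monocytic. From the intestine of APCmin/+ mice, heterozygous for a truncating Apc allele that gives intestinal adenomas, came libraries labelled G+M, G and M, and all cells as a single-cell suspension. From the spleen of APCmin/+ mice came G+M, G and M libraries, and the same 3 sorts came from the spleen of BALB/c mice with an immune deficiency whose mutation the labels do not give. The marrow was from wild-type C57BL/6 newborns at postnatal day 7, as G, as M and as all cells. The labels give neither the ages of the other mice nor the antibodies used for sorting, and the number of animals behind a group is not stated. Tissue, strain, genotype and age therefore cannot be told apart between marrow and the other sites, and the p-values below measure only the spread between these samples.

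Genomic imprinting silences one parental copy of a gene, and many imprinted genes set the size of the fetus. Igf2 codes for a fetal growth factor, H19 for a long noncoding RNA of the same domain made from the other parental copy, and both are shut down in most tissues after birth. Dlk1 and Meg3 form a second such pair. Igf2bp2 and Igf2bp3 are not imprinted but code for proteins that bind mRNAs, Igf2 mRNA among them, and Igf2bp3 is best known from fetal tissue. The table sums reads over both alleles, so these values give the level of a gene and not its parental origin.

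Levels are in TPM, a gene's share of the transcripts of a library after allowing for length, which can be compared between genes. The labels were set against marker genes. In the intestine, G+M, G and M libraries held 8 epithelial markers at a summed 5251.8 to 7837.7 TPM, close to the 5775.4 to 7822.0 TPM of all intestinal cells. Their 10 myeloid markers, which include Itgam and S100a8, summed to only 85.4 to 630.7 TPM, against 20475.3 to 100371.3 TPM in G and M libraries of APCmin/+ spleen and 83001.9 to 98604.3 TPM in G and M libraries of marrow. The intestinal sorts are therefore called by their labels here and not by a cell type. In bulk libraries, fewer cells of a type and less RNA per cell cannot be told apart.

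Promoter sequences from RefSeq (build GRCm38.p6, from 250 bases before to 50 bases after the annotated start) are printed for the pair Igf2bp3 and Igf2bp2, whose site patterns were opposite, for Igf2 and Peg3, which varied together in marrow, and for Meg3, which reached its highest group mean in BALB/c spleen. Each is written 5′ to 3′ on the strand of the gene. Of the 9 genes, 7 were matched to 11 such windows of 300 bases. Capitals mark matches on either strand to 6 motifs, which were chosen after the sequences had been seen. The E-box, the site of many helix-loop-helix factors, was searched as CACGTG. The cyclic AMP response element was searched as TGACGTCA, and a motif named for the PLAGL1 protein as GGGGCCCC. The motif named for ZFP57, a keeper of imprints, was searched as TGCCGC. The TATA box of many regulated promoters was searched as TATAAA, and the GC box, known as the site of Sp1, as GGGCGG.
Igf2bp3, chr6:49214905-49215204, minus strand: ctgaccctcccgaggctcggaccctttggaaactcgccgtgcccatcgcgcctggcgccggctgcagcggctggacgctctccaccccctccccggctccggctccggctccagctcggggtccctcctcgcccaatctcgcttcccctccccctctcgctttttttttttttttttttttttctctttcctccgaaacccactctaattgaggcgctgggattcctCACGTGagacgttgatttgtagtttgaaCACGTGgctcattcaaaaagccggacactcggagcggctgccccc
Igf2bp2, chr16:22163250-22163549, minus strand: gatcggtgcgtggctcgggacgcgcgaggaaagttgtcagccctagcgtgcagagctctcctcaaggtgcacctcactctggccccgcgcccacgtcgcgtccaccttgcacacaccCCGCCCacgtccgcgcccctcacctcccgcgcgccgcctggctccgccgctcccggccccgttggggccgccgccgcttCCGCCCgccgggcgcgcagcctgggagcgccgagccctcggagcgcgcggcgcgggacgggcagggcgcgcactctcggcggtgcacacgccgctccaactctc
Igf2, chr7:142657447-142657746, minus strand: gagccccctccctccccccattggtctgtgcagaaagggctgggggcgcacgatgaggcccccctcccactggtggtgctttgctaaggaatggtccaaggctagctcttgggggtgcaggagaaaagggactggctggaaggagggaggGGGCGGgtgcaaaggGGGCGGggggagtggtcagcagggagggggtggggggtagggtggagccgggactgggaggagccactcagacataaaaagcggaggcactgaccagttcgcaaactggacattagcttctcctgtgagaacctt
Peg3, chr7:6730370-6730669, minus strand: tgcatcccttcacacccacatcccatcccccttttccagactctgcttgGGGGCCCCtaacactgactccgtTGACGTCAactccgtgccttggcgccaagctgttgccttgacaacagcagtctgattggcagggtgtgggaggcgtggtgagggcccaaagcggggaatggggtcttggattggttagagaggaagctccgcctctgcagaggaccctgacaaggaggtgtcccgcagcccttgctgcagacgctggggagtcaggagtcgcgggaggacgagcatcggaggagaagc
Meg3, chr12:109540746-109541045, plus strand: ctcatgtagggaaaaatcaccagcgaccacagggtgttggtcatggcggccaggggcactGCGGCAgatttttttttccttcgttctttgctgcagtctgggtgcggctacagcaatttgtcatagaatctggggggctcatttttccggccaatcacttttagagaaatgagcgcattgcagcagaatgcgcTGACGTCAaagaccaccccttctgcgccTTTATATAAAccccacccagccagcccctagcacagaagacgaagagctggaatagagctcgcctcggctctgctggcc

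The Igf2bp2 window was 76.7% GC with 47 CpG dinucleotides, and the Igf2bp3 window 60.3% GC with 25, beside medians of 52.7% GC and 7 CpG over 32851 mouse promoter windows. Igf2bp3 held 2 E-boxes, a match found in 7.15% of all windows, and Igf2bp2 held 2 GC boxes, found in 35.7%. The Igf2 window printed, 1 of 4 in the table, held 2 GC boxes, the most matches of the 4, while the others held 1 GC box, 1 match to the ZFP57 motif and no match. Peg3 held 1 cyclic AMP response element, found in 1.79% of all windows, and 1 match to the PLAGL1 motif, found in 1.08%. Meg3 held 1 cyclic AMP response element, 1 match to the ZFP57 motif, found in 11.6% of all windows, and 2 overlapping TATA matches, found in 13.6%, while the other of its 2 windows held no match. These matches describe letters in the windows and are no evidence of binding.

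Across the sites the 9 genes fell into unlike patterns. H19, Igf2, Cdkn1c and Peg3 were above 0 in every library of marrow and of the intestine, and were lower in the spleens than in the intestine. Against marrow M libraries the spleens were not always lower. Cdkn1c averaged 1.07 TPM in M libraries of BALB/c spleen and 1.12 TPM in those of marrow, and Igf2 averaged 0.163 and 0.457 TPM there, with overlap for both genes. Over 12 intestinal libraries, H19 had a lowest, median and highest level of 0.81, 5.78 and 7.99 TPM, against 1.29, 9.83 and 13.2 TPM over 9 marrow libraries, and in 18 spleen libraries it reached at most 0.15 TPM and was listed at 0 in 11. Igf2 ran from 1.35 to 5.01 TPM in the intestine, up to 0.38 TPM in the spleens, and from 0.32 to 10.9 TPM in marrow. For Igf2 the marrow libraries spread on either side of the intestinal ones. For H19, among marrow and intestinal libraries, the lowest was intestinal and the highest was from marrow.

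Cdkn1c, an inhibitor of cyclin-dependent kinases, ran from 3.93 to 9.66 TPM in the intestine, 0.14 to 1.22 TPM in the spleens and 0.92 to 6.51 TPM in marrow. Peg3, a zinc finger protein expressed from the paternal copy, ran from 1.69 to 3.29 TPM in the intestine, 0 to 0.18 TPM in the spleens and 0.15 to 2.57 TPM in marrow. For Cdkn1c, every intestinal library lay above every spleen library, and for Peg3 likewise, while marrow overlapped the intestine for both.

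The other genes each went their own way. Igf2bp3 was high only in the newborn marrow, at 19.8 to 41.4 TPM in all 9 libraries and at most 0.57 TPM in the other 30. Its log2 differences of spleen or intestine over the same sort of marrow lay between −5.13 and −4.05. Whether tissue or age goes with this cannot be told apart. Igf2bp2 was high only in the intestinal libraries, at 12.8 to 22.7 TPM there, 0.18 to 1.44 TPM in the spleens and 0.30 to 1.16 TPM in marrow. Meg3 ran from 1.33 to 14.1 TPM in the intestine, 0.17 to 5.28 TPM in APCmin/+ spleen, 7.27 to 15.4 TPM in BALB/c spleen and 0.11 to 1.98 TPM in marrow. Its group means were 12.4 TPM in G and 11.6 TPM in M of BALB/c spleen, 10.3 TPM in all intestinal cells and 9.37 TPM in G+M of BALB/c spleen, and neighbours in that order overlapped. Plagl1, a zinc finger transcription factor of fetal growth control, ran from 0.23 to 3.63 TPM in the intestine, 0.13 to 1.70 TPM in the spleens and 0.82 to 6.30 TPM in marrow, with overlap between all sites. Dlk1, a transmembrane protein related to Notch ligands, stayed at or below 0.46 TPM outside marrow and passed 1 TPM in 1 of 39 libraries.

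**Figure D1:**
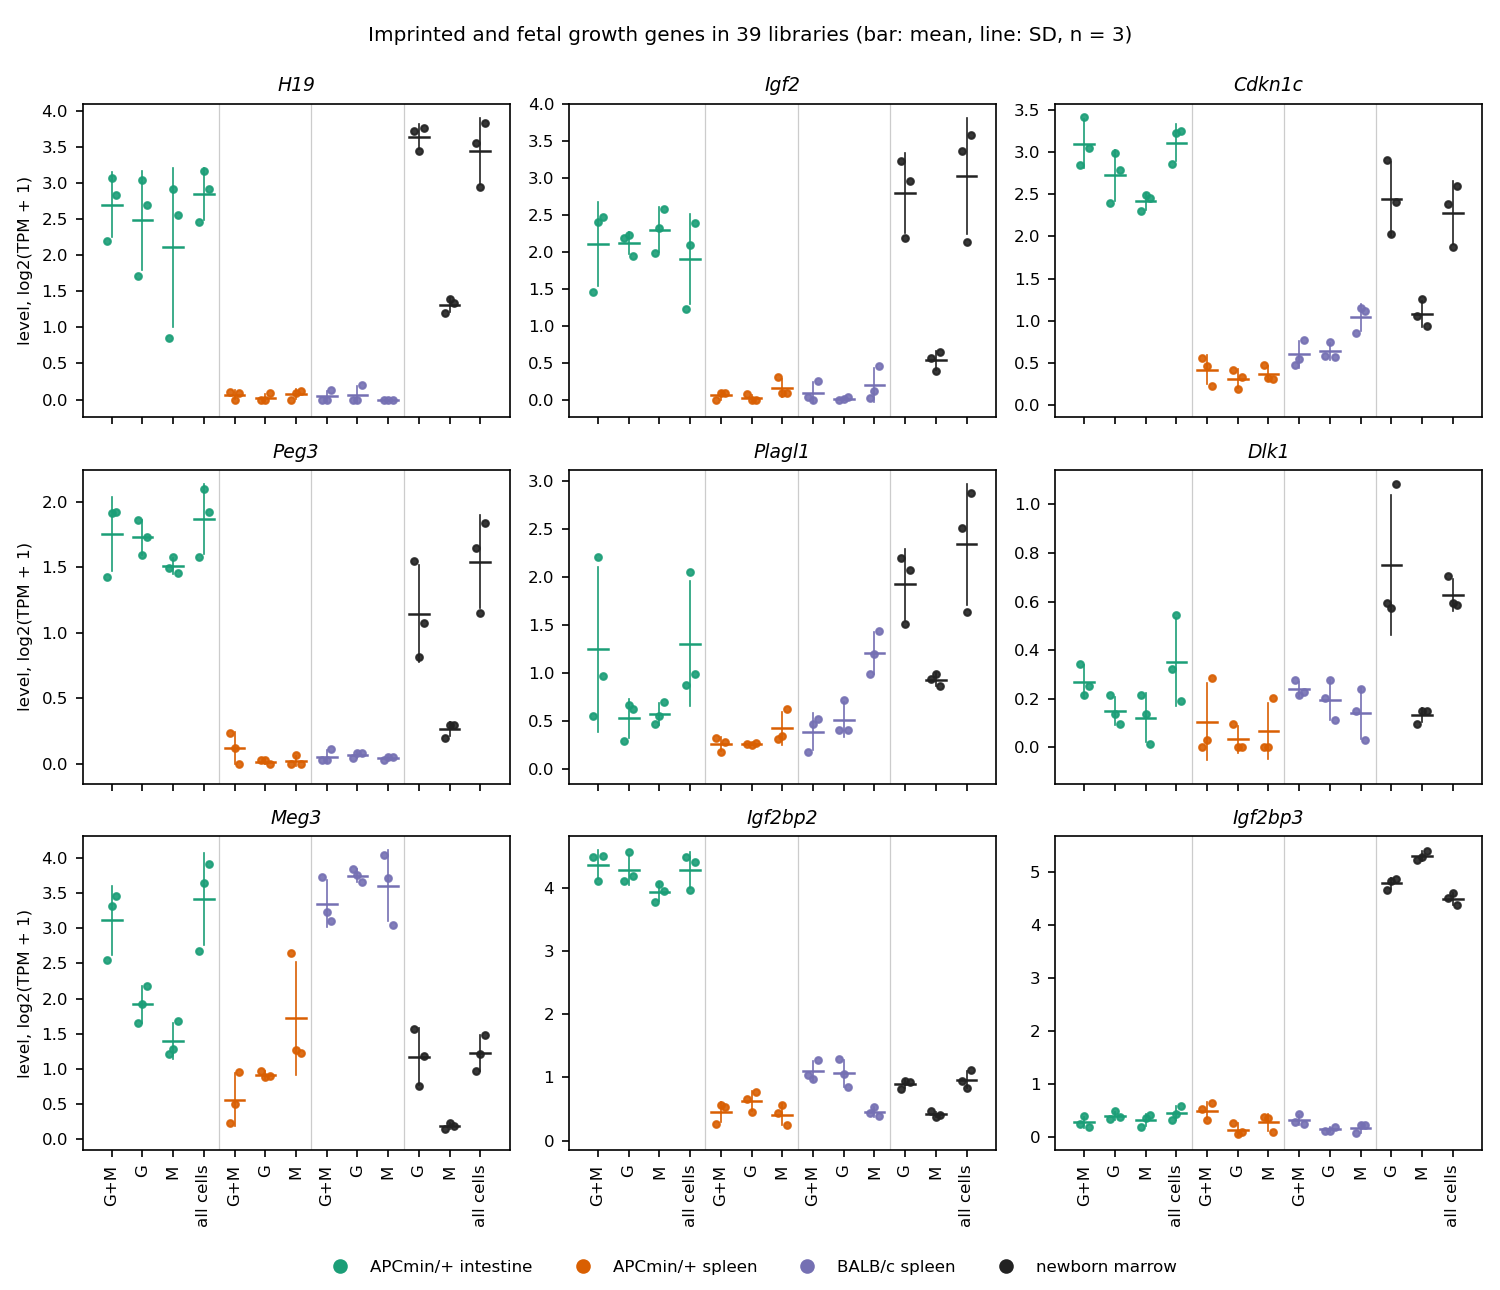
Level of each gene as log2(TPM + 1) (vertical axis) in each of 39 libraries (points), by sort, with site as colour. Bars are means and lines SDs of 3 libraries. Igf2bp3 stands high in marrow, Igf2bp2 in the intestine and Meg3 in BALB/c spleen, and the marrow M libraries lie below marrow G and all cells for H19, Igf2, Cdkn1c, Peg3 and Plagl1.

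H19 and Igf2 lie near each other in the genome, H19 at chr7:142575529-142578143 and Igf2 at chr7:142650766-142666816, both on the minus strand, by the GENCODE annotation of GRCm38, the assembly that mm10 names. Within marrow, which the choice of genes did not set against itself, H19 had 12.2, 9.83 and 12.5 TPM in G libraries, 1.29, 1.62 and 1.52 TPM in M libraries, and 10.8, 6.69 and 13.2 TPM in all cells. Igf2 had 8.38, 3.58 and 6.81 TPM in G libraries, 0.48, 0.32 and 0.57 TPM in M libraries, and 9.34, 3.39 and 10.9 TPM in all cells. For both genes the G and all-cell libraries overlapped and every M library lay below them.

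Differences were tested with limma on log2(TPM + 1), in 1 fit of all 39 libraries, with p adjusted by Benjamini and Hochberg over 18466 genes. A call needed a log2 fold change of 1 or more, up or down, and an adjusted p below 0.05. The filter, at least 1 TPM in at least 3 libraries, was passed by 8 of the 9 genes, Dlk1 being the exception. In G over M libraries of marrow, 3 of these 8 rose, H19, Igf2 and Cdkn1c, where 6.89% of all genes tested were called higher. H19 was 2.33 ± 0.33 higher on that log2 scale (SE, limma adjusted p = 1.96e-06), and its mean was 7.80-fold that of M. Igf2 was 2.26 ± 0.29 higher (limma adjusted p = 5.33e-07), and its mean was 13.7-fold that of M. All 3 G libraries lay above all 3 M libraries for both genes. The scale understates folds of genes near 1 TPM, since 1 is added to each value.

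Cdkn1c lies on the same chromosome at chr7:143458339-143461050, and limits growth where Igf2 promotes it. It had 6.51, 3.07 and 4.29 TPM in marrow G libraries, 1.07, 1.38 and 0.92 TPM in M libraries, and 4.22, 2.66 and 5.04 TPM in all cells. It was 1.37 ± 0.19 higher in G than in M (limma adjusted p = 1.57e-06), and no G library overlapped an M library. The list of 16 other cell cycle inhibitors and G1 cyclins held 1 gene called higher in G over M of marrow, Ccnd2 (cyclin D2), at 1.22, and 1 called lower, Cdkn2c, another kinase inhibitor, at −1.34. Each call made up 6.25% of that list, against 6.89% of all genes tested called higher and 3.33% lower. The median of that list was 0.01, against 0.04 over all genes tested. In M over all cells none of the 16 rose and 4 fell (25%, against 11.2% of all genes tested). Those were the cyclins Ccnd2 at −1.70, Ccne1 at −1.70 and Ccnd1 at −1.65 and the kinase Cdk4 at −1.22, and Cdkn1c fell with them. In G over all cells none rose and 6 fell (37.5%, against 9.49% of all genes tested), Ccne1 at −1.90 and the transcription factor E2f1 at −1.41 among them.

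Peg3 had 1.92, 0.76 and 1.11 TPM in marrow G libraries, 0.15, 0.23 and 0.23 TPM in M libraries, and 2.13, 1.22 and 2.57 TPM in all cells. Plagl1 had 3.59, 1.84 and 3.2 TPM in G, 0.92, 0.99 and 0.82 TPM in M, and 4.69, 2.11 and 6.30 TPM in all cells. The M libraries were the lowest of marrow for both genes, with no overlap with G or with all cells. G over M gave 0.88 ± 0.16 for Peg3 (limma adjusted p = 5.35e-05) and 0.99 ± 0.30 for Plagl1 (limma adjusted p = 0.0118), both short of the fold that a call needed. Without G library 2 of marrow, the lowest of G for these genes, 6 genes were called instead of 3, Meg3, Peg3 and Plagl1 being added at 1.19, 1.05 and 1.2. Without M library 2 the count was 5.

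In M over all cells of marrow, 6 of the 8 fell, where 11.2% of all genes tested were called lower. Igf2 had a log2 fold change of −2.49 ± 0.29 (limma adjusted p = 5.73e-08). H19 stood at −2.14, Plagl1 at −1.41, Peg3 at −1.28, Cdkn1c at −1.20 and Meg3 at −1.03, with every M library below every all-cell library. The call of Meg3 was lost without all-cell library 3, at −0.90, and when libraries were rescaled by the median ratio of well-expressed genes, at −0.95. In G over all cells, none of the 8 was called by limma, where 19.1% of all genes tested were called in either direction. An unadjusted p under 0.05 was reached by 2 of the 8. With the replicate as a block it was reached by 1 of the 8, beside 11072 of the 18466 genes tested. The interval of the difference ran from −0.48 to 0.87 for H19 and from −0.83 to 0.37 for Igf2, both 95% intervals that hold differences in both directions.

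Dlk1 passed no filter and was not tested. It had 0.51, 0.49 and 1.12 TPM in marrow G libraries, 0.07, 0.11 and 0.11 TPM in M libraries, and 0.63, 0.51 and 0.50 TPM in all cells. Its M libraries too were the lowest of marrow, at levels where TPM alone cannot show how many reads stand behind a value.

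**Figure D2:**
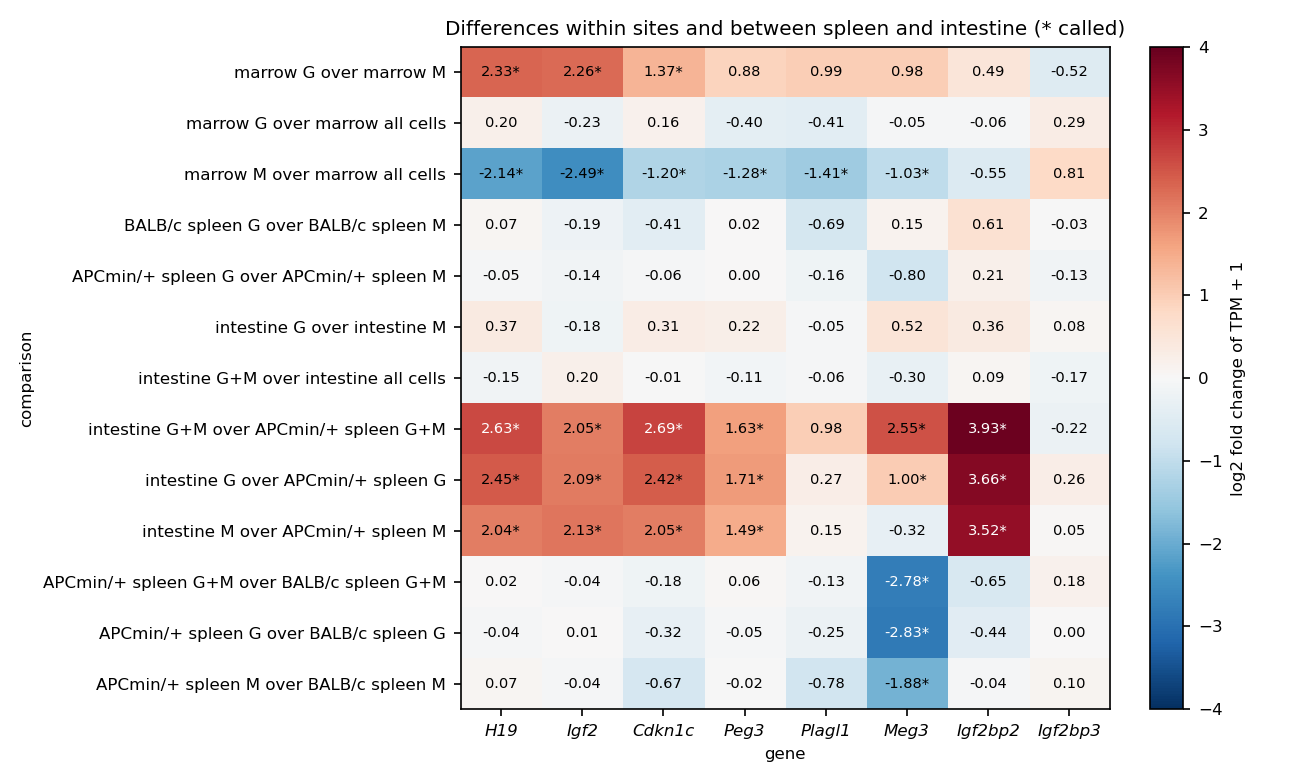
Log2 fold change of TPM + 1 (colour and number) for 8 genes (columns) in 13 comparisons (rows), from 1 limma fit of 39 libraries. An asterisk marks a call. H19 and Igf2 are called in both marrow contrasts with M libraries, and Meg3 is the gene called between the 2 kinds of spleen.

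Markers of other cell types moved with these genes in marrow. The 12 stromal markers summed to 609.5, 307.6 and 465.5 TPM in G libraries, 86.8, 38.6 and 60.1 TPM in M libraries, and 874.4, 654.7 and 1115.5 TPM in all cells. A mean of at least 1 TPM was reached by 11 of 12 in G, 4 of 12 in M and 12 of 12 in all cells, and none was at 0, Col1a1 having 176.9, 88.7 and 138.9 TPM in G and 35.5, 14.4 and 19.98 TPM in M. The 9 bone and cartilage markers summed to 75.5 TPM or more in G, 19.7 to 24.8 TPM in M, with Sox9 at 0, and 87.3 to 118.8 TPM in all cells.

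The 8 endothelial markers summed to 123.6 to 161.3 TPM in G libraries, 27.4 to 28.0 TPM in M libraries and 88.0 to 114.3 TPM in all cells. The 6 B cell markers gave 1797.0 to 1986.5 TPM in G, 214.6 to 296.0 TPM in M and 751.1 to 874.2 TPM in all cells. The 10 myeloid markers summed to 88335.8 to 98604.3 TPM in G and 83001.9 to 98320.1 TPM in M. That list is of myeloid cells at large, with Ly6g and Ly6c2 both in it, so its sum cannot tell G from M. The stromal sum was lowest in library 2 of each marrow group, where Igf2 was also lowest. H19, Cdkn1c, Peg3 and Plagl1 were likewise lowest in library 2 of G and of all cells, but not of M. There, library 2 had the highest H19, Cdkn1c and Plagl1, at 1.62, 1.38 and 0.99 TPM, and Peg3 was lowest in library 1. The part of stromal and other marked cells in the results was not tested.

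Over the 9 marrow libraries, which share 3 groups, Pearson's r of log2(TPM + 1) with the stromal sum was 0.96 for Igf2, 0.95 for Peg3, 0.92 for H19, 0.91 for Plagl1, 0.89 for Cdkn1c and −0.97 for Igf2bp3. Some other lists ran as close. With the endothelial sum r was 0.98 for H19 and 0.95 for Cdkn1c, and with the bone and cartilage sum 0.97 for H19 and 0.96 for Igf2. It was 0.93 for H19 with the epithelial sum and 0.99 for Peg3 with the megakaryocyte sum. Not all lists did: for H19 and Igf2 r was 0.44 and 0.51 with the stem and progenitor sum and 0.32 and 0.2 with the smooth muscle sum. It was 0.59 and 0.68 with the erythroid sum and −0.41 and −0.52 with the myeloid sum. Of the 8 epithelial markers, 1 reached a mean of 1 TPM in marrow G, 0 in M and 3 in all cells. In G their sum, 9.81 to 12.8 TPM, was mostly Lgr5, at 7.43 to 9.92 TPM. Over the same 9 marrow libraries Igf2 had r = 0.97 with H19 and with Peg3, and 0.92 with Meg3. Over the 12 intestinal libraries, in 4 groups, r of H19 and Igf2 was 0.31, and r with the stromal sum was 0.60 for H19, 0.10 for Igf2 and 0.80 for Peg3. BALB/c spleen had H19 near 0 beside a stromal sum made up mostly of 1 marker. Its stromal markers reached 27.7 to 67.0 TPM, with Postn, a matrix protein, alone at 57.8 ± 2.34 TPM in G libraries, while H19 was at most 0.15 TPM there and Col1a1 averaged 0.197 TPM in G libraries.

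**Figure D3:**
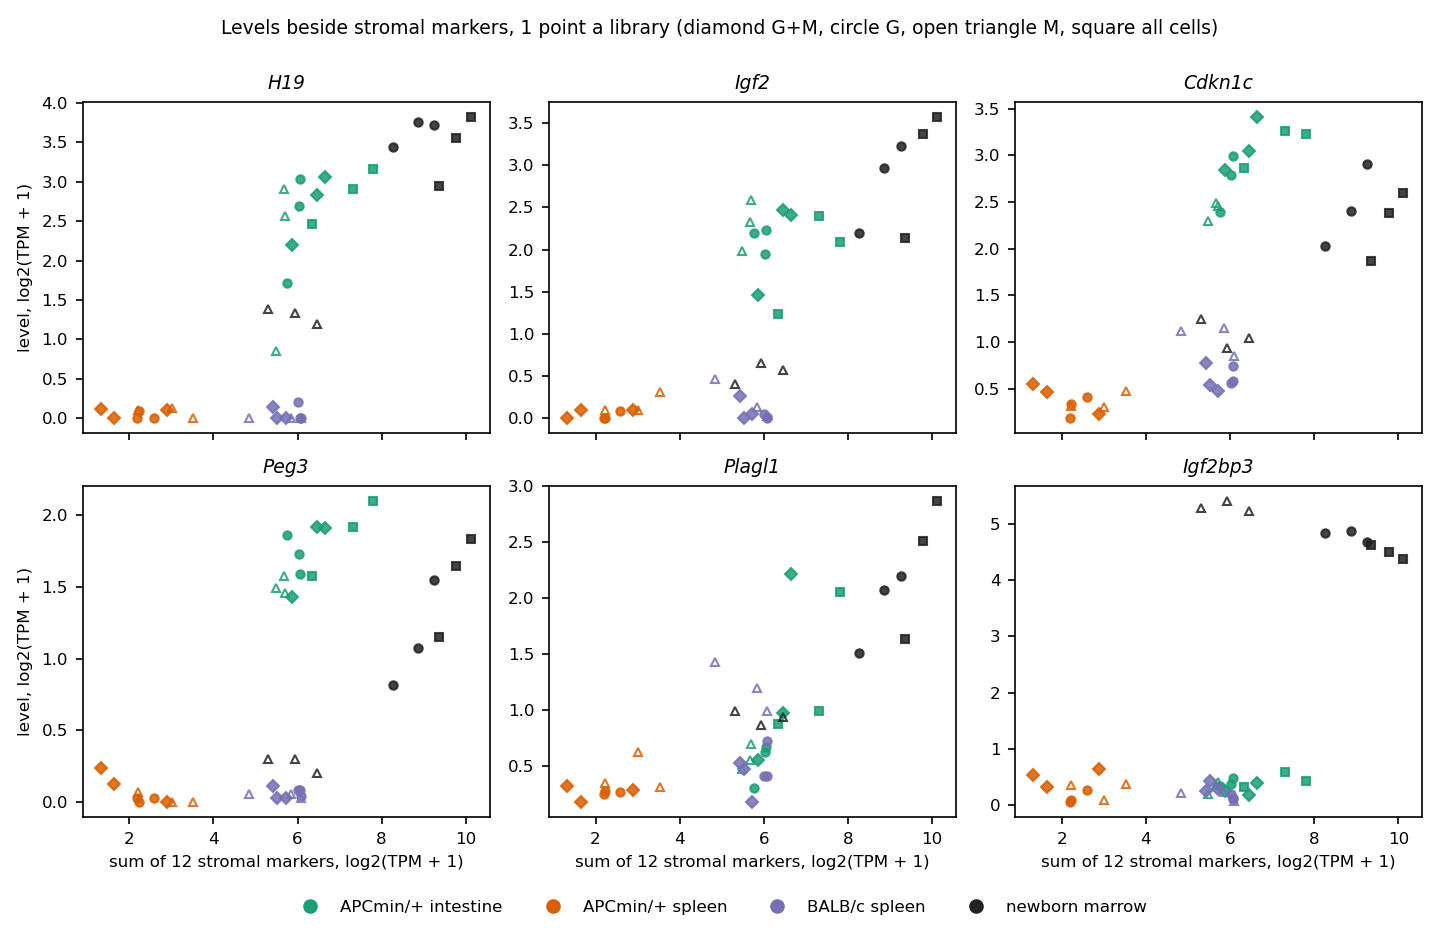
Level of 6 genes as log2(TPM + 1) (vertical axis) against the summed TPM of 12 stromal markers on the same scale (horizontal axis), 1 point a library, colour for site and shape for sort. Marrow M libraries (open black triangles) lie at low stromal sums with low H19, Igf2, Cdkn1c, Peg3 and Plagl1, and with the highest Igf2bp3.

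Igf2bp3, at chr6:49085223-49214957 on the minus strand, ran opposite to the imprinted genes within marrow. It had 24.4, 27.5 and 28.1 TPM in G libraries, 36.6, 37.9 and 41.4 TPM in M libraries, and 21.7, 23.5 and 19.8 TPM in all cells, and the 3 groups did not overlap. G over M gave −0.52 ± 0.11 (limma adjusted p = 0.000336) and M over all cells 0.81 ± 0.11 (limma adjusted p = 3.28e-07), both short of the fold that a call needed. G over all cells gave 0.29 ± 0.11 (limma adjusted p = 0.0236). Malsu1, a gene on the opposite strand, overlaps Igf2bp3 and reached 25.4 TPM. The library kit keeps strand, but whether the counting used it was not stated.

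The related Igf2bp1 was listed at 0 in all 18 spleen libraries and reached at most 0.96 TPM elsewhere. Igf2bp2, at chr16:22059009-22163299 on the minus strand, had 0.77, 0.93 and 0.91 TPM in marrow G libraries, 0.38, 0.30 and 0.32 TPM in M libraries, and 0.92, 0.79 and 1.16 TPM in all cells. It was low in every marrow library, and its M libraries were again the lowest. In the intestine its level had r = 0.86 with the epithelial marker sum over 12 libraries.

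The Lin28 proteins block the maturation of let-7 microRNAs, which in turn lower Igf2bp and Hmga2 mRNAs, and are known for the fetal state of blood stem cells. Of 11 genes of this programme, 9 were tested. Lin28b had 1.33, 1.67 and 1.75 TPM in marrow G libraries, 0.35, 0.67 and 0.44 TPM in M libraries, 2.28, 2.70 and 2.70 TPM in all cells, and at most 0.05 TPM at the other sites. It fell in M over all cells (log2 fold change −1.26 ± 0.07, limma adjusted p = 8.92e-14), so that among the 3 marrow groups, though not across sites, it was lowest where Igf2bp3 was highest.

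Lin28a averaged 50.9 ± 1.61 TPM in G, 46.8 ± 0.811 TPM in M and 17.9 ± 1.16 TPM in all cells of marrow (SD, n = 3). Unlike Igf2bp3 it was also present in APCmin/+ spleen, at 26.2 ± 14.7 TPM in M libraries, against 1.25 ± 0.525 TPM in M libraries of BALB/c spleen. In M over all cells of marrow, 2 genes of the list rose, Arid3a, a DNA-binding protein of fetal B cells, at 1.76 and Lin28a at 1.34. Another 2 fell, Hmga2, a chromatin protein, at −1.89 and Lin28b, with a median of −0.18 against −0.10 over all genes tested. Each direction was 22.2% of the list tested, against 7.87% of all genes tested called higher and 11.2% lower. In G over M, Zcchc11, an enzyme that adds uridines to the let-7 precursor, rose by 1.55 and Hmga2 by 1.03, and none fell. That is 22.2% called higher, against 6.89% of all genes tested, and the median of the list was 0.22 against 0.04 over all genes tested. In G over all cells, Arid3a at 1.66 and Lin28a at 1.46 rose (22.2%, against 9.65% of all genes tested).

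**Figure D4:**
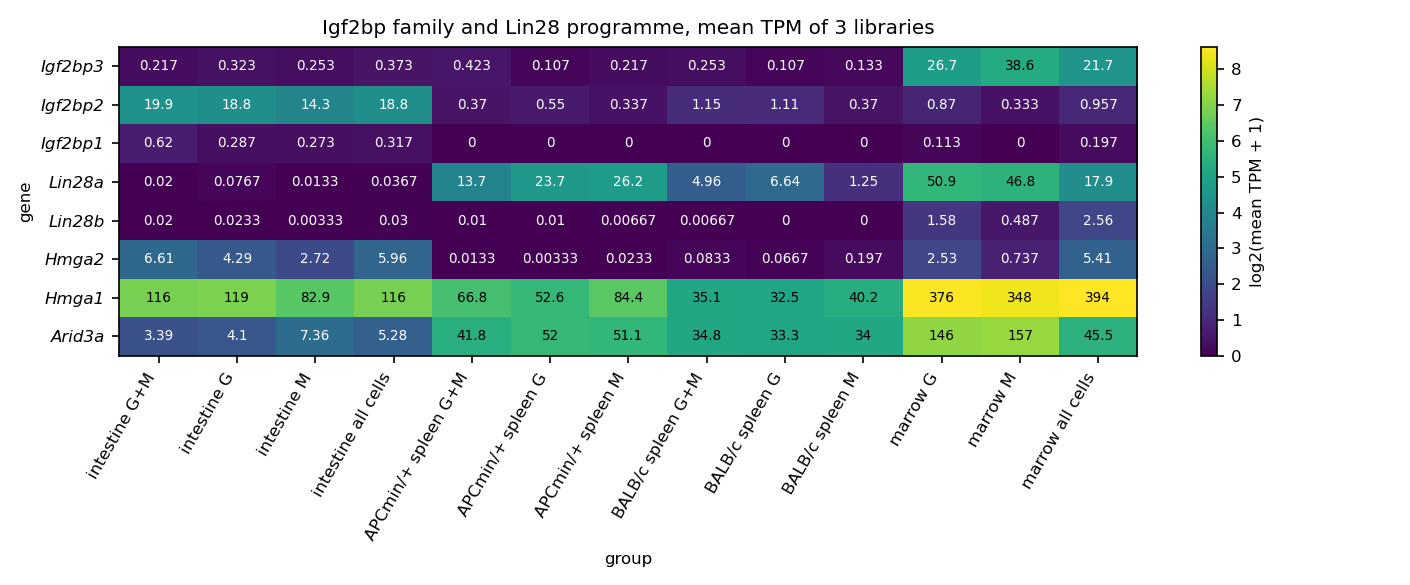
Mean TPM of 3 libraries (numbers, colour as log2 of the mean + 1) for the 3 Igf2bp genes and 5 genes of the Lin28 programme (rows) in 13 groups (columns). Outside marrow, Igf2bp3 averages at most 0.423 TPM in a group and Lin28b at most 0.03 TPM, Igf2bp2 averages 14.3 TPM or more in the 4 intestinal groups, and Lin28a is also present in the spleens.

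Meg3, a long noncoding RNA at chr12:109541001-109571726 on the plus strand, was low in marrow M libraries like the genes above, but stood high in BALB/c spleen, where those genes were low. It had 0.17, 0.42 and 0.95 TPM in G+M libraries of APCmin/+ spleen, against 12.2, 8.35 and 7.56 TPM in those of BALB/c spleen. In G libraries it had 0.97, 0.84 and 0.86 TPM in APCmin/+ spleen, against 13.3, 12.5 and 11.6 TPM in BALB/c spleen. In M libraries it had 5.28, 1.42 and 1.35 TPM in APCmin/+ spleen, against 15.4, 12.1 and 7.27 TPM in BALB/c spleen. No library of one spleen overlapped those of the other in any of the 3 sorts.

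Between the spleens Meg3 was the gene called among the 8 in each sort, where 5.39% of all genes tested were called lower for G+M, 5.77% for G and 5.97% for M. APCmin/+ over BALB/c spleen gave −2.78 ± 0.32 for G+M (limma adjusted p = 9.39e-08), −2.83 ± 0.32 for G (limma adjusted p = 6.51e-08) and −1.88 ± 0.32 for M (limma adjusted p = 3.84e-05). In a fit of the M libraries alone the last had an adjusted p of 0.0661 by limma, and the call was lost. APCmin/+ M library 1 was the highest of its spleen. Strain, genotype and any difference in age or housing cannot be told apart here.

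Rian, a second noncoding RNA of the domain, moved with Meg3. It averaged 1.06 ± 0.540 TPM in G libraries of APCmin/+ spleen and 6.40 ± 0.795 TPM in those of BALB/c spleen (SD, n = 3), and it fell in all 3 sorts of APCmin/+ over BALB/c spleen, with a log2 fold change of −1.87 ± 0.39 in G (limma adjusted p = 0.000548). Mirg, the third noncoding RNA of the domain, stayed at or below 0.80 TPM in all libraries. Dlk1, expressed from the other parental copy, reached at most 0.22 TPM in the spleens, so the high Meg3 of BALB/c spleen had no such Dlk1 beside it. The stromal markers summed to 1.51 to 10.5 TPM in APCmin/+ and 27.7 to 67.0 TPM in BALB/c, Lum being at 0 in G and M libraries of both. Most of that difference was Postn, at most 1.51 TPM in APCmin/+ and 23.6 to 59.7 TPM in BALB/c. Without it the other 11 summed to 1.44 to 8.96 TPM in APCmin/+ and 4.11 to 8.36 TPM in BALB/c, with no overlap within G+M or within G and with overlap within M, and Col1a1 averaged 0.330 TPM in G+M of APCmin/+ and 0.107 TPM in G+M of BALB/c. In the same libraries, the 10 myeloid markers summed to 20475.3 to 100371.3 TPM in APCmin/+ and 6088.2 to 20942.2 TPM in BALB/c. B cell and endothelial sums were lower in APCmin/+ without overlap in G+M and in G, and overlapped in M. In G, B cell markers gave 1638.6 to 3221.8 TPM against 3299.0 to 3494.7 TPM. Endothelial markers gave 45.4 to 90.1 TPM against 111.5 to 116.6 TPM there, Pecam1 alone averaging 62.0 and 110.8 TPM. Erythroid markers went the other way in G+M, at 2886.9 to 10199.6 TPM against 1001.8 to 2124.2 TPM. Their part in the result was not tested. A microRNA entry inside Meg3, Mir1906-1, reached 9.97 TPM, and reads shared by both entries cannot be told apart.

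**Figure D5:**
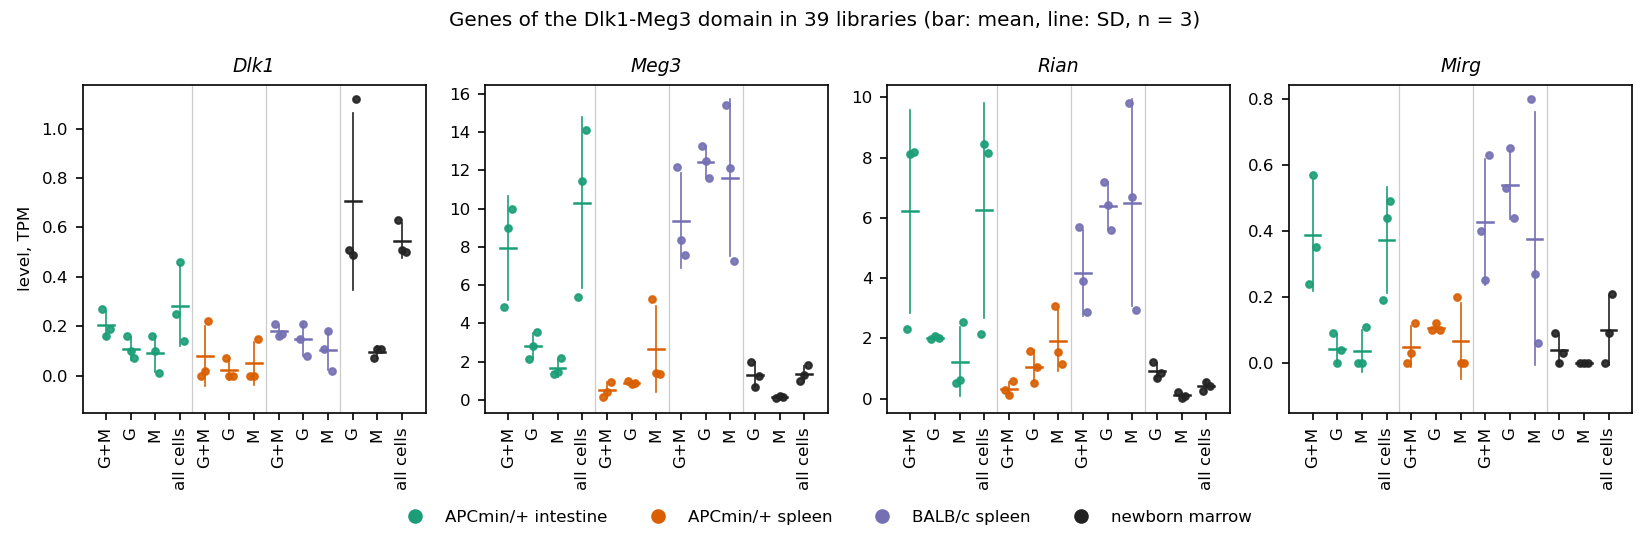
TPM (vertical axis) of 4 genes of the Dlk1-Meg3 domain in 39 libraries (points), by sort, with site as colour. Bars are means and lines SDs of 3 libraries. Meg3 and Rian stand high together in BALB/c spleen and in intestinal G+M and all-cell libraries, while Dlk1 is low at each of those sites.

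In the intestine, Meg3 had 4.87, 8.99 and 10.0 TPM in G+M libraries, 2.15, 2.81 and 3.53 TPM in G, 1.33, 1.44 and 2.21 TPM in M, and 5.37, 11.4 and 14.1 TPM in all cells. G+M and all cells overlapped, and G and M lay below both. Its r with the stromal sum over these 12 libraries, in 4 groups, was 0.89. It was 0.93 with the neural and glial sum and with the stem and progenitor sum, a list that holds Kit and Cd34 and not Lgr5. With the endothelial, smooth muscle and epithelial sums it was 0.83, 0.82 and 0.12. Library 1 of G+M and of all cells was the lowest of its group, in Meg3 and in the stromal sum.

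Intestine and spleen of APCmin/+ mice were compared sort by sort. In G+M over G+M, 6 of the 8 rose (19.5% of all genes tested were called higher), in G over G the same number (18.7%), and in M over M 5 (14.2%). H19, Igf2, Peg3, Cdkn1c and Igf2bp2 were called in all 3. Igf2bp2 differed most, by 3.93 ± 0.15 in G+M (log2, limma adjusted p = 2.21e-20), with means of 19.9 TPM in the intestine and 0.370 TPM in the spleen. H19 differed by 2.63 ± 0.33 in G+M (limma adjusted p = 3.14e-08), with 3.59, 7.35 and 6.12 TPM in the intestine and at most 0.09 TPM in the spleen. Igf2 differed by 2.05 ± 0.29 in G+M (limma adjusted p = 3.73e-07), with 1.75, 4.30 and 4.53 TPM in the intestine.

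Cdkn1c differed by 2.69 ± 0.19 in G+M (limma adjusted p = 1.26e-13) and Peg3 by 1.63 ± 0.16 (limma adjusted p = 1.16e-10). Meg3 was the sixth gene, at 2.55 ± 0.32 in G+M and 1.00 ± 0.32 in G, and its call in G was lost without any 1 of 4 libraries (0.87 to 1.00). In M it stood at −0.32, at 0.14 without APCmin/+ spleen M library 1, and at 0.10 after rescaling, so its sign depended on 1 library and on the scaling. Plagl1 stood at 0.98 in G+M, just short of a call, and was called at 1.14 after rescaling. Rescaling moved the median of all genes in these contrasts, from −0.15 to 0.01 in G+M, −0.16 to 0 in G and −0.43 to 0 in M. The epithelial marker sum was 5251.8 to 7837.7 TPM in the intestinal sorts and 3.87 to 32.8 TPM in the APCmin/+ spleen sorts, with Cdx2 at 0 in G+M of that spleen, and its part in these differences was not tested.

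Within the intestine and the spleens, 4 contrasts were tested, G over M at each site and G+M over all cells of the intestine, and none of the 8 was called in them. Between G and M of the intestine, limma called none, where 2.83% of all genes tested were called in either direction, and 1 had an unadjusted p under 0.05. In G+M over all cells of the intestine, none was called, where 3.24% of all genes tested were called, and none had an unadjusted p under 0.05. In G over M of APCmin/+ spleen, none was called, where 3.22% of all genes tested were called, and 1, Meg3 at −0.80, had an unadjusted p under 0.05. Without M library 2 or 3 of that spleen Meg3 was called, at −1.02 and −1.05. In these 3 contrasts the replicate numbers were taken to pair the libraries, a pairing read from these data. Limma with the replicate as a block again called none of the 8. Over all genes that fit called 261 instead of 523 in the intestinal G over M contrast, 0 instead of 594 in APCmin/+ spleen and 0 instead of 599 in intestinal G+M over all cells. Of the 18466 genes tested, it gave an unadjusted p under 0.05 to 6775, 4912 and 4738 in that order. Of the 8 genes, it did so for 2, 1 and 1.

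H19 in the intestine had 2.27, 7.23 and 5.44 TPM in G libraries and 0.81, 6.52 and 4.90 TPM in M libraries. Library 1 was the lowest in both sorts, and G lay above M in 3 of 3 pairs. G over M was 0.37 ± 0.33 (log2), and with the replicate as a block 0.37 ± 0.20 (limma adjusted p = 0.268). Meg3, Peg3, Cdkn1c and Igf2bp2 were also higher in G in 3 of 3 pairs, by 0.52, 0.22, 0.31 and 0.36. The median over all genes tested was itself 0.14 in this contrast, and −0.01 after rescaling. How many of all genes were higher in 3 of 3 pairs was not counted, so these pairs mark no trait of the 8. With the block the lowest adjusted p of the 8 by limma was 0.0655, for Meg3. Between G and M of BALB/c spleen none of the 8 was called, where 4.94% of all genes tested were called. An unadjusted p under 0.05 was reached by 3 of the 8. With the replicate as a block it was again reached by 3, beside 6152 of the 18466 genes tested. Igf2bp2 had 1.44, 1.08 and 0.81 TPM in G and 0.35, 0.45 and 0.31 TPM in M there, without overlap, at 0.61 ± 0.15 (limma adjusted p = 0.00313), short of the fold for a call.

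The genes most like each of the 8 were named by Pearson's r of log2(TPM + 1) over the 13 group means, among 12301 genes with a group mean of at least 5 TPM. For H19 they were Armcx1 (r = 0.979), Sox4 (0.978) and Ppic (0.977), and for Igf2 they were Ppic (0.976), Tspan6 and Armcx1, so 2 of their 3 neighbours were shared. Peg3 was most like Cpe (0.995), Col12a1 and Pcdhgc4, and Cdkn1c most like Agt (0.984), Col12a1 and Nrep. Plagl1 was most like Adgrl4 (0.955), Ddah2 and Gmpr. Meg3 was most like Rian (0.979), Zdhhc1 and Ankrd24, and Igf2bp2 most like Neo1 (0.998), Sema3b and Car12. Igf2bp3 was most like Stfa3 (0.984) and Stfa1 (0.980), stefin protease inhibitors, and Hist1h3c (0.974). Stfa1 and Stfa3 have near-identical copies, between which reads can be split.

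Over the 9 marrow libraries the same measure gave Lox (0.995), Col12a1 and Bgn for Igf2, which code for an enzyme and proteins of the extracellular matrix. It gave Ptpn14 (0.995), Maged1 and Sdc1 for H19, Tgfb1i1 (0.995), Cavin2 and Spry1 for Peg3, and Efnb1 (0.990), Rhoj and Gas6 for Cdkn1c. It gave Col18a1 (0.979), Postn and Col6a1 for Meg3. For Igf2bp2 it gave Akap7 (0.987), Cpe and Ppm1e. For Igf2bp3 the 3 were Cntrl (0.995), Stat2 and Galns.

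Of 50 other imprinted genes, 34 were tested. In G over M of marrow, 6 rose and 2 fell (17.6% and 5.88%, against 6.89% and 3.33% of all genes tested), with a median log2 fold change of 0.29 against 0.04 over all genes tested. Mest, an imprinted gene of mesoderm, had 8.76, 3.61 and 7.96 TPM in G libraries, 0.36, 0.52 and 0.70 TPM in M libraries, and 5.44, 3.03 and 7.13 TPM in all cells. It was 2.28 ± 0.26 higher in G than in M (log2, limma adjusted p = 5.77e-08), with G library 2 the lowest of G, as for Igf2. Ddc, an amino acid decarboxylase, rose by 1.49, Grb10, an adaptor that damps insulin and IGF signalling, by 1.36, and Sfmbt2, a Polycomb protein, by 1.36.

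In M over all cells of marrow, none of the 34 rose and 4 fell (11.8%, against 11.2% of all genes tested), Grb10 at −2.25, Mest at −1.97, Slc22a3, a cation transporter, at −1.75 and Sgce, a sarcoglycan, at −1.27, with a median of −0.18 against −0.10 over all genes tested. In G over all cells, 4 rose and 3 fell, with medians of 0.03 and −0.03, which is 20.6% of the list called against 19.1% of all genes tested. Among those, Sfmbt2 rose by 1.82 and Peg13, a noncoding RNA, by 1.46, while Gatm, a creatine synthesis enzyme, stood at −1.92 and Slc22a3 at −1.52. In G+M of intestine over G+M of APCmin/+ spleen, 15 rose and 5 fell (44.1% and 14.7%, against 19.5% and 19.9% of all genes tested), with medians of 0.69 and −0.15. The largest were Ddc at 5.63, Slc22a18, a membrane transporter, at 5.55, Kcnq1, a potassium channel, at 5.40 and Cobl, an actin nucleator, at 5.38, each with at most 0.227 TPM on average in that spleen.

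Of 16 genes of the IGF axis, 13 were tested. Between G and M of marrow, 4 rose in G and none fell (30.8% higher, against 6.89% of all genes tested). The median was 0.62 against 0.04 over all genes tested, and all 4 code for IGF binding proteins or a relative. Igfbp5 had 35.3, 20.9 and 29.4 TPM in G libraries, 2.05, 1.37 and 2.46 TPM in M libraries, and 21.8, 13.4 and 35.5 TPM in all cells, and it was 3.31 ± 0.26 higher in G than in M (log2, limma adjusted p = 2.89e-11). Igfbp7 rose by 1.93, Igfbp2 by 1.68 and Igfbp3 by 1.30. In M over all cells, 5 fell (38.5%, against 11.2% of all genes tested), Igfbp5 at −2.97 and the growth factor Igf1 at −1.73 among them. Insr, the insulin receptor, was the 1 that rose, by 1.14 (7.69%, against 7.87% of all genes tested).

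Igf1r, which carries the signal of Igf2, had 47.4, 46.1 and 48.1 TPM in G libraries of marrow and 15.95, 14.98 and 16.2 TPM in all cells, and it rose in G over all cells by 1.53 ± 0.26 (log2, limma adjusted p = 1.52e-05). Its M libraries lay between, at 24.8 to 27.4 TPM. In the intestine it averaged 3.33 ± 0.205 TPM in G+M, against 36.7 ± 5.50 TPM in G+M of APCmin/+ spleen (SD, n = 3), a log2 fold change of −3.11. Igf2r, an imprinted receptor that clears Igf2 from the cell surface, averaged 20.0 ± 0.887 TPM in G, 18.6 ± 1.31 TPM in M and 13.7 ± 0.674 TPM in all cells of marrow. Intestinal G+M libraries, where Igf2 was present, thus had less Igf1r and more Igf2r (log2 fold change 1.06) than those of APCmin/+ spleen, where Igf2 was at most 0.07 TPM.

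The same lists were read in the intestine against APCmin/+ spleen. Of the IGF axis, 7 rose and 3 fell in G+M, with a median of 1.15 against −0.15 over all genes tested. That is 53.8% and 23.1%, against 19.5% and 19.9% of all genes tested. In G, 5 rose and 3 fell (38.5% and 23.1%, against 18.7% and 22.2%). In M, 4 rose and 3 fell (30.8% and 23.1%, against 14.2% and 25.7%). Igf1 stood at −3.26 in G+M, while Igfbp4 rose by 2.96 and Igfbp7 by 2.81. Of the Lin28 programme, 1 rose and 4 fell in G+M (11.1% and 44.4%, against 19.5% and 19.9% of all genes tested). Hmga2, at 2.90, was the gene that rose, and Lin28a at −3.79, Arid3a at −3.31 and Zcchc11 at −2.60 were among those that fell. Of the G1 list, 4 rose and 5 fell in G+M (25% and 31.2%), against 19.5% of all genes tested called higher and 19.9% lower. Among them were the kinase inhibitors Cdkn2b at 5.49 and Cdkn1a at 5.26 and the cyclin Ccnd1 at 3.43, with the inhibitors Cdkn2d at −3.13 and Cdkn1b at −1.47. Cdkn1c thus rose there together with 2 other inhibitors, while 2 more fell.

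Between the spleens, APCmin/+ over BALB/c, Lin28a rose in all 3 sorts, by 1.28 in G+M, 1.37 in G and 3.45 in M. In G the libraries overlapped, at 6.39, 44.1 and 20.5 TPM in APCmin/+ against 5.97, 8.99 and 4.95 TPM in BALB/c. The myeloid markers of those APCmin/+ libraries summed to 20475.3, 100371.3 and 48405.0 TPM, and their part was not tested. Igf2bp3 was at most 0.57 TPM in both spleens. Of the 34 other imprinted genes, none rose and 2 fell in G+M, none rose and 3 fell in G, and 2 rose and 3 fell in M. The share that fell, 5.88% in G+M and 8.82% in G and in M, stood near the 5.39%, 5.77% and 5.97% of all genes tested. Ppp1r9a, which codes for a protein that binds protein phosphatase, fell with Rian there, at −1.93 in G and −1.36 in M.

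H19 is also the precursor of a microRNA, miR-675, whose mature forms are printed from RefSeq with the seed, bases 2 to 8, in capitals.
miR-675-5p: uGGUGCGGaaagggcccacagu
miR-675-3p: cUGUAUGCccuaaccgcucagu
The table lists its gene entry at 0 TPM in every library. Libraries of polyadenylated RNA do not measure mature microRNAs, so the level of miR-675 is not given by these data.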

How the data were processed

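Polyadenylated RNA of 39 samples was sequenced as single 75-base reads from a stranded mRNA kit, per the labels' protocols. The authors deposited TPM per gene; their steps used bcl2fastq 2.18, STAR 2.6.1c, RSEM and mm10, per the submitters' processing notes, and other settings were not stated. TPM keeps no depth, and read totals are unknown here. Of the identifiers, 53274 matched a gene name, and 26 symbols turned into dates were restored. No 2 libraries were identical.

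Tests used limma 3.58.1 in R 4.3.3 on log2(TPM + 1), which understates changes of low genes, in 1 fit of 39 libraries (26 residual degrees of freedom), over 18466 genes with at least 1 TPM in at least 3 libraries, with Benjamini-Hochberg adjustment. It was tested on simulated data. Tables and figures used Python 3.11.15, pandas 2.3.3, numpy 2.4.6 and matplotlib 3.10.9. There were 13 tested comparisons, and 7 between marrow and another site were only described. The alternatives were a pseudocount of 0.1, no filter, rescaling by the median ratio, a fit of the groups compared alone, a replicate block, no fold minimum and each library left out.

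Replicate numbers were taken to pair samples where every same-numbered pair deviated together with r over 0.1. This held for G and M of APCmin/+ spleen (0.555, 0.375 and 0.404), G and M of the intestine (0.599, 0.432 and 0.562) and G+M and all cells of the intestine (0.643, 0.59 and 0.628). G and M of marrow fell short of it (0.097, 0.148 and 0.08). The rule reads the pairing from these data.

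The 9 genes, the 4 pathway lists (93 genes) and the 12 marker lists were chosen with earlier results of these data known. Besides the 9 genes, those named were the 3 most like each over group means and over marrow libraries, up to 4 called genes of largest change per list and comparison, and the first markers of each list. The genes most like Plagl1 over marrow libraries are not reported here. Igf1r in the marrow M libraries, Igf2r, Igf2bp1 and Mirg were named after their values were seen. The marker lists not described with the results summed as follows in marrow G, M and all cells. Megakaryocyte markers gave 267.7 to 634.9, 126.9 to 185.2 and 485.6 to 822.2 TPM, erythroid markers 1034.4 to 1562.9, 388.5 to 636.5 and 33919.3 to 61102.2 TPM, and stem and progenitor markers 35.2 to 40.7, 30.8 to 39.0 and 88.8 to 107.9 TPM. Smooth muscle markers stayed at or below 11.4 TPM in marrow, neural and glial markers at or below 16.7 TPM, and enteroendocrine markers at or below 1.27 TPM.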

Additional observations from a re-analysis of the deposited data

How the results depend on the processing

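Counts of the 8 genes called are given as tested, then under alternatives. Counts over all genes moved too, as given at the end, so a gain among the 8 cannot be read alone. In G over M of marrow, 3 became 7 with a pseudocount of 0.1, 8 with no fold minimum and 3 to 6 with 1 library left out. It was 6 without library 2 of each marrow group, a setting chosen after seeing the data. With the replicate block, all 8 had an unadjusted p under 0.05 in that contrast by limma, beside 10095 of the 18466 genes tested. With no fold minimum, G over all cells of marrow had 2 instead of 0, and G over M of BALB/c spleen 1 instead of 0, as also with the pseudocount. For APCmin/+ over BALB/c spleen, 1 became 2 in G+M, 2 in G and 3 in M with no fold minimum, and 2 in G+M and 3 in M with the pseudocount. With the replicate block it became 0 in G+M and 0 in M (Meg3 limma adjusted p = 0.0632 and 0.083), where the numbers were not taken to pair the samples. Over all genes, calls then went to 393 instead of 1662 in G+M, 548 instead of 1638 in G and 297 instead of 2120 in M. In the fit of the M libraries alone it was 0. M over all cells of marrow, with 6, had 8 with no fold minimum, 7 with the pseudocount and 5 with rescaling. Intestine over APCmin/+ spleen, with 6 in G+M and in G, had 7 in both with no fold minimum and with the pseudocount, and 7 in G+M with rescaling. With 1 library left out, G over M of APCmin/+ spleen had 0 to 1, M over all cells of marrow 5 to 6, and intestine over APCmin/+ spleen 6 to 7 in G+M and 5 to 6 in G. H19 in G over M of the intestine, 0.37 and not called, was −0.26 without M library 1, which breaks a pair. No direction of a called gene reversed, and the block changed no other count. The cause of these moves was not tested. Over all genes tested, the count moved by over 1.5 times in 13 of 13 comparisons with no fold minimum, 6 with the pseudocount, 6 with the block and 5 with a fit of the groups alone, and in none with no filter or rescaling. Depth is unknown, so the counting error of levels below 1 TPM, as for Dlk1, cannot be given.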
